A study of Bos taurus with 12 samples.

Results

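KLC3, kinesin light chain 3, was read by 1 probe of the array, and that probe stood for 1 of the 12316 genes tested from 15208 probes. The gene was chosen on its signal, which was far higher on day 18 of gestation than in the other groups. Its values in that contrast are therefore given as a description, without a test. The data were single-colour Agilent array signals from the corpus luteum, the gland of the ovary that secretes progesterone, of Japanese Black cows. The 12 arrays form 3 groups of 4 cows each: P18, pregnant cows on day 18 of gestation; P15, pregnant cows on day 15 of gestation; and NP15, cyclic cows that were not pregnant, on day 15 of the estrous cycle. Day 1 was the day of insemination, the glands were removed 10 to 30 min after exsanguination, and each array received label made from 400 ng of total RNA. The arrays held 17 other kinesin genes, and 15 of these passed the filter on dim probes.

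Kinesin-1 is a motor that walks along microtubules towards the cell periphery. It is built from heavy chains of the KIF5 family, which hold the motor, and light chains of the KLC family, which bind cargo and adaptor proteins and hold the idle motor in check. KLC3 is the light chain best known from rat spermatids, where it binds the outer dense fibres of the sperm tail and associates with mitochondria. Luteal cells rely on transport of cholesterol and of mitochondria for steroid synthesis, and a particular role of KLC3 in the corpus luteum is not assumed here.

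The probe sequences of the 3 kinesin light chains on the array are shown because every value of these genes rests on 1 probe each. In the KLC3 probe, capitals mark the longest run of bases that it shares on the same strand with any of the 15207 other probes. In the KLC2 and KLC4 probes, capitals mark the longest run shared on the same strand with the KLC3 probe. All are printed 5′ to 3′ as in the scanner files.
KLC3: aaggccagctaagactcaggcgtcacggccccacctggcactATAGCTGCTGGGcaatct
KLC2: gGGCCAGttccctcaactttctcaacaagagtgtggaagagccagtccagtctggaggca
KLC4: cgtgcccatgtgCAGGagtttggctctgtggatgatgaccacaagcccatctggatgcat

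Each of these probes is 60 bases long, with a GC content of 60.0% for KLC3 and 55.0% for KLC2 and for KLC4. The marked run of the KLC3 probe spans 12 bases, positions 43 to 54 from its 5′ end, and is shared with a single probe, that of BLCAP. That probe did not pass the test in P18 against NP15, with a log2 change of -0.35 (SE 0.12, limma adjusted p = 0.0569). KLC2 shared a run of 6 bases with KLC3 on the same strand and KLC4 a run of 4. No kinesin probe shared more than 7 bases on the same strand, or 8 on the opposite strand, with the KLC3 probe. On the opposite strand the longest run shared with any other probe was 13 bases, with a probe of KCNA4. The KCNA4 probe was too dim to test, with means of -7.30 in P18, -7.26 in P15 and -8.30 in NP15 (log2 values as defined below). The file lists the KLC3 probe, A_73_102056, under the gene name MGC134459, describes it as similar to human KLC3, and gives no genome position for it. The probe was not aligned to a transcript here.

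Log2 values give the processed signal of a spot relative to the 75th percentile of its array, so 0 stands for a spot as bright as that percentile. That percentile was 3000 to 3558 scanner units on the P18 arrays, 2649 to 3773 on the P15 arrays and 2868 to 4183 on the NP15 arrays. Fewer probes were well above background on the P18 arrays, 67.5% to 72.6%, against 75.3% to 80.5% on the P15 arrays and 79.6% to 85.6% on the NP15 arrays. The net signal of negative control spots was 78.8 to 92.2 on the P18 arrays, 32.1 to 36.4 on the P15 arrays and 34.7 to 38.5 on the NP15 arrays. The P18 arrays lay alone on slide 2, read in scan 2, while P15 and NP15 shared slide 1 and scan 1. Slide, scan and group therefore cannot be told apart wherever P18 is compared. On slide 1 the P15 arrays took row 2 and the NP15 arrays row 1, so that row and pregnancy cannot be told apart either. P18 differs from NP15 in day as well as in pregnancy.

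KLC3 was 11.1-fold higher in P18 than in NP15 and 12.3-fold higher in P18 than in P15, while P15 and NP15 lay together. Its log2 value was -0.46, -0.56, -0.31 and -0.43 on the 4 P18 arrays. On the P15 arrays it was -3.88, -4.02, -4.10 and -4.25. On the NP15 arrays it was -3.95, -3.79, -4.27 and -3.63. The P18 arrays all stood above every P15 and NP15 array, and the P15 values lay within the NP15 range.

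In means, KLC3 was at -0.44 ± 0.10 in P18, -4.06 ± 0.16 in P15 and -3.91 ± 0.27 in NP15 (log2, SD, n = 4 each). The log2 change was 3.47 (SE 0.14) for P18 against NP15 and 3.62 (SE 0.14) for P18 against P15, and both share the P18 arrays. The P18 arrays spread the least around their mean. In bulk tissue, fewer cells of a type and less RNA per cell cannot be told apart, and the same holds for more.

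**Figure D1:**
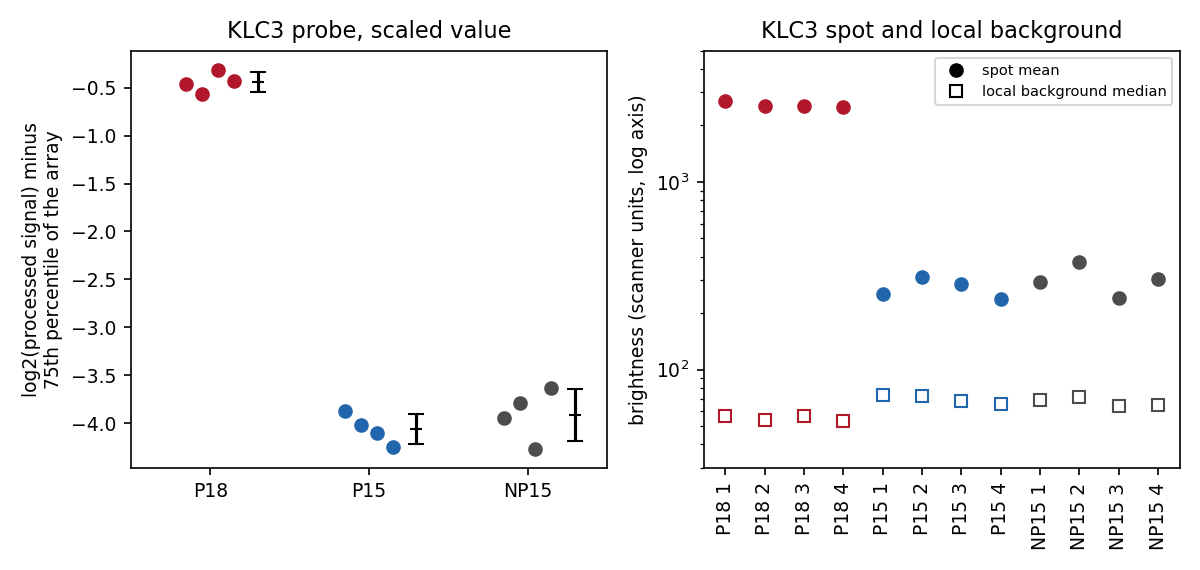
KLC3 on the 12 arrays. The left panel shows the log2 value, relative to the 75th percentile of each array, with a point per array and bars for the mean ± SD of 4 arrays. The right panel shows the mean brightness of the KLC3 spot (filled circles) and the median of its local background (open squares) in scanner units on a log axis. The P18 spots are at 44.7 to 47.4 times their local background, the P15 spots at 3.43 to 4.33 times and the NP15 spots at 3.75 to 5.22 times.

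The raw brightness showed the same order. The processed signal of the spot was 2587, 2409, 2415 and 2374 scanner units on the P18 arrays. On the P15 arrays it was 180, 232, 215 and 172, and on the NP15 arrays it was 226, 302, 174 and 231. In this unscaled signal the lowest P18 array was 7.86-fold above the highest NP15 array and 10.2-fold above the highest P15 array. The KLC3 spot was well above background on all 12 arrays and was neither saturated nor marked as irregular on any. The local background ran the other way, at 53.0 to 57.0 scanner units in P18, 66.0 to 73.5 in P15 and 64.0 to 71.5 in NP15. By its place among the probes of the same array, which needs no scaling, KLC3 exceeded 70.4% to 72.6% of probes in P18, 41.1% to 43.2% in P15 and 40.5% to 45.4% in NP15.

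KLC3 was not the gene with the very highest rise. Among the rises of all genes tested it ranked 6 in P18 against NP15 and 2 in P18 against P15. A log2 rise of at least 3 in P18 against both other groups was seen for 5 genes: KLC3, PRSS2, a trypsinogen, the locus LOC507201 and 2 unnamed transcripts. Among these 5, KLC3 was the 1 gene well above background on all 12 arrays, and the other 4 were above it on 3 to 6 arrays. PRSS2 had the larger change in P18 against NP15, 6.10, and LOC507201 the larger change in P18 against P15, 3.79. Only for KLC3 among them was the lower level itself measured on each array.

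The comparison of KLC3 in P15 against NP15 is not the contrast that chose the gene, but the low values of both groups entered that choice, so its test is not independent of it. The log2 change was -0.15 (SE 0.14), with a 95% interval of -0.46 to 0.16 and a limma adjusted p of 0.825. The exact two-sided permutation test over the 8 samples gave p = 0.371, where the smallest value it can give is 0.0286. Of all genes, 1.01% passed the test in this comparison.

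The other kinesins did not share the size of the KLC3 change. In P18 against NP15, 7 of the 15 tested passed (46.7%), 1 higher and 6 lower, where 28.9% of all genes passed, 10.4% higher and 18.6% lower. Their median log2 change was -0.22, beside -0.06 over all genes, and they ranged from -1.72 to 1.68. P18 and NP15 values did not overlap for 6 of them, and for 30.4% of all genes. In P18 against P15, 7 passed, 2 higher and 5 lower, where 28.3% of all genes passed, 12.8% higher and 15.5% lower. Their median was -0.24, beside -0.03 over all genes, and 8 of them had groups that did not overlap, against 34.7% of all genes. The split by direction depends on the scaling: with each array centred on its median, which moved the median change of all genes in P18 against NP15 to 0.18, 4 kinesins were higher and 3 lower in each comparison. In that setting 67.6% of all genes called in P18 against NP15 were higher, beside 35.8% as scaled here.

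Both other light chains had lower signal in P18, opposite to KLC3. KLC2, a widely expressed light chain, was at -5.40, -4.65, -4.64 and -5.24 in P18, -3.97, -4.18, -4.25 and -4.31 in P15, and -4.42, -3.90, -4.37 and -3.81 in NP15. KLC4, a light chain less well studied, was at -5.52, -4.97, -5.54 and -5.29 in P18, -4.21, -4.32, -3.55 and -4.65 in P15, and -4.51, -4.41, -4.50 and -4.07 in NP15. All P18 arrays lay below every P15 and NP15 array for both genes.

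KLC2 fell by 0.86 (SE 0.21, limma adjusted p = 0.00997) in P18 against NP15 and by 0.80 (adjusted p = 0.0141) in P18 against P15, on the log2 scale. KLC4 fell by 0.96 (SE 0.22, adjusted p = 0.00803) and by 1.15 (adjusted p = 0.00316) in the same comparisons. The KLC2 calls did not hold under quantile, median or loess scaling, normexp background correction or the adjustment for neighbouring spots, where its adjusted p in P18 against NP15 was 0.0555 to 0.107. KLC4 lost its call in P18 against NP15 under loess scaling (adjusted p = 0.0588) and normexp (0.127), where its change was -0.36. KLC1 is not among the symbols matched to probes here.

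The heavy chains of kinesin-1 that were read are KIF5A and KIF5C, both best known from neurons. KIF5A was at -5.63, -6.48, -5.15 and -5.34 in P18, -7.03, -7.25, -7.07 and -7.13 in P15, and -7.20, -7.19, -7.06 and -7.89 in NP15. It was the 1 other kinesin higher in P18 than in both groups, by 1.68 (SE 0.27, limma adjusted p = 0.001) against NP15 and 1.47 (adjusted p = 0.0023) against P15. The signal was close to background, being well above it on 3 P18, 2 P15 and 3 NP15 arrays, and the rise in P18 against NP15 was 0.98 with normexp. KIF5A is also an older name of KIF5B in the gene table, so which heavy chain this probe reads is uncertain. KIF5C did not pass, at -5.22 ± 1.14 in P18, -6.46 ± 1.34 in P15 and -5.97 ± 0.76 in NP15 (SD, n = 4 each).

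**Figure D2:**
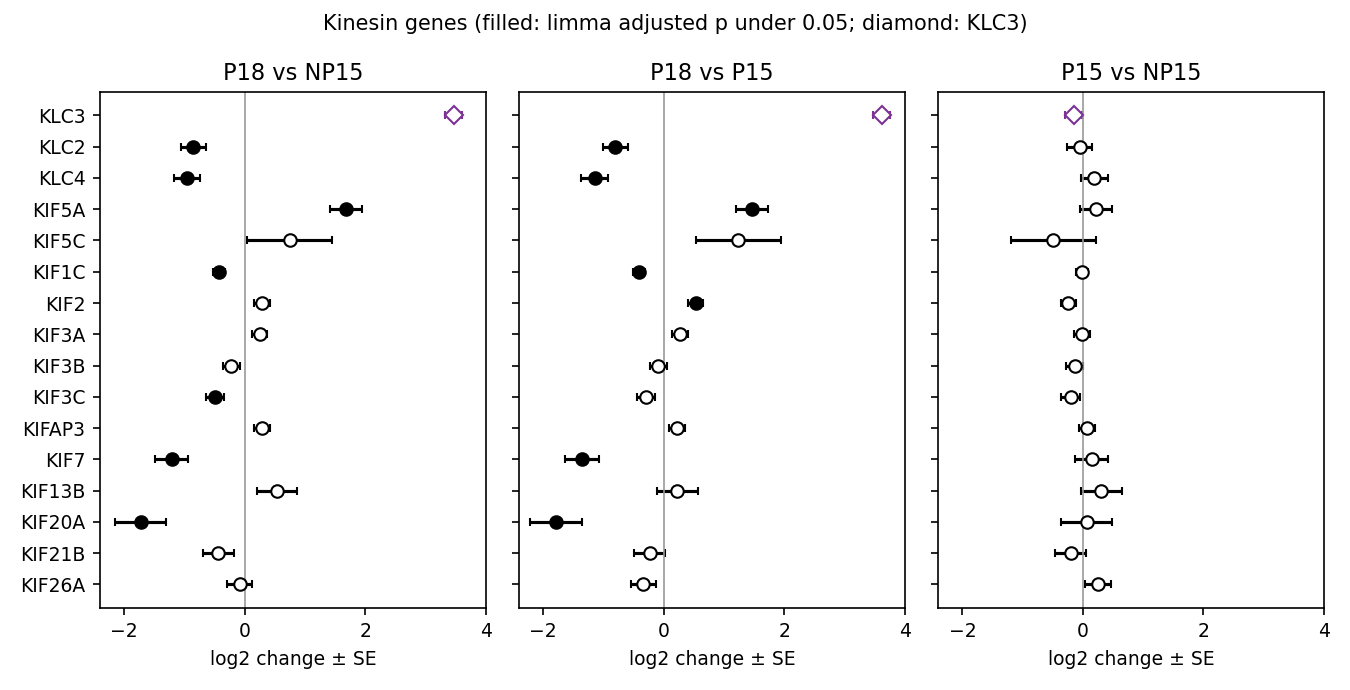
Log2 change of KLC3 (diamond) and the 15 other kinesins tested (circles) in the 3 comparisons, with bars for the SE of the fit over 12 arrays. Filled circles have a limma adjusted p under 0.05 and KLC3 is drawn without a call. KLC3 stands at 3.47 and 3.62 in the comparisons with P18, the highest other kinesin is KIF5A at 1.68 and 1.47, and in P15 against NP15 the other kinesins lie between -0.49 and 0.31.

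Among kinesins outside kinesin-1, KIF20A, a motor of cell division, fell by 1.72 (SE 0.43, limma adjusted p = 0.0111) in P18 against NP15, where its groups overlapped, and by 1.79 (adjusted p = 0.00964) in P18 against P15. KIF7, which acts in Hedgehog signalling at the tip of the primary cilium, was at -4.81, -4.76, -4.59 and -4.47 in P18, -2.90, -3.64, -2.90 and -3.75 in P15, and -3.67, -3.01, -3.00 and -4.11 in NP15. It fell by 1.21 (SE 0.28, adjusted p = 0.00768) against NP15 and by 1.36 (adjusted p = 0.0043) against P15. KIF7 and KIF20A passed under each of the 5 other scalings and corrections in both comparisons, and so did the rise of KIF5A.

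KIF1C, a vesicle motor, fell by 0.43 (limma adjusted p = 0.00796) and by 0.41 (adjusted p = 0.0102) in P18 against NP15 and P15. Its call was lost under median centring in both comparisons and with the adjustment for neighbouring spots against P15. KIF3C, a kinesin-2 motor subunit, fell by 0.49 (adjusted p = 0.0352) in P18 against NP15, and this call did not hold under any of the 5 other scalings and corrections, nor without P18 replicate 1, 3 or 4. The gene listed under the old symbol KIF2 was 0.53 higher in P18 than in P15 (adjusted p = 0.0103), a value of 0.13 with the adjustment for neighbouring spots (adjusted p = 0.544). Against NP15 it passed under 4 of the 5 other scalings and corrections, though not as scaled here. KIF3A, KIF3B, KIFAP3, KIF13B, KIF21B and KIF26A did not pass in any comparison as scaled here. With median centring KIF3A and KIFAP3 passed in both comparisons with P18, and so did KIF3A with the adjustment for neighbouring spots. KIF17 and CENPE were too dim to test. In P15 against NP15, limma called 0 of the 15 kinesins. An unadjusted p under 0.05 was reached by 0 of them and by 8.75% of all genes, and groups that did not overlap by 0 of them and 6.5% of all genes.

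The listed partners of kinesin-1 include cargo adaptors and proteins that bind its light chains. Of 12 tested, 1 was higher and 1 lower in P18 against NP15 (16.7%), where 28.9% of all genes passed. The median log2 change was 0.02, beside -0.06 over all genes. In P18 against P15, 0 were higher and 1 lower (8.33%), where 28.3% of all genes passed. FEZ1, a kinesin-1 adaptor, was at -2.42, -2.89, -3.03 and -2.93 in P18 and -3.15, -3.71, -4.91 and -3.86 in NP15. It rose by 1.09 (SE 0.35, limma adjusted p = 0.0375), and the call was lost when any 1 of 7 of the 8 arrays compared was left out, the exception being NP15 replicate 1. SPAG9, a scaffold that binds light chains, had a lower value in P18 (limma adjusted p = 0.0101), but it was well above background on 0 of the P18 arrays, so no fold is given, and with normexp its difference was 0.15 in the opposite direction. VDAC2, a mitochondrial outer membrane channel that binds KLC3 in rat sperm, was at -1.60, 2.68, 2.68 and 2.79 in P18 and 3.18, 3.18, 3.19 and 3.59 in NP15. It did not pass (adjusted p = 0.149), and without P18 replicate 1 its change was -0.57 with an adjusted p of 0.0202. PLEKHM2, which links kinesin-1 to lysosomes, did not pass as scaled here, at 0.27 (adjusted p = 0.219), but passed with median centring (0.0258) and the adjustment for neighbouring spots (0.0293).

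Genes of dynein and dynactin, the motor complex that moves in the opposite direction, were higher in P18 or did not pass. Of 13 tested, 5 were higher and 0 lower in P18 against NP15 (38.5%, median 0.19), where 28.9% of all genes passed and 10.4% were higher. In P18 against P15 the counts were also 5 and 0, where 28.3% of all genes passed and 12.8% were higher. DYNLT1, a dynein light chain, was at 2.82, 2.60, 2.45 and 2.54 in P18 and 1.74, 1.94, 2.01 and 2.06 in NP15, and rose by 0.67 (SE 0.11, limma adjusted p = 0.00154). DYNC1I1, an intermediate chain that anchors cargo, rose by 1.56 (SE 0.38, adjusted p = 0.0101). The dynactin subunits DCTN3, DCTN4 and DCTN5 rose by 0.39, 0.35 and 0.32 (adjusted p = 0.0225, 0.0305 and 0.0413), and DCTN5 was named after its value was seen. DCTN3 and DCTN4 lost their calls under quantile scaling (adjusted p = 0.074 and 0.0959), and DCTN4 also under cyclic loess (0.0605). Leaving out NP15 replicate 1 or 3 or P18 replicate 2 or 3 ended both calls, and leaving out P18 replicate 4 that of DCTN4, with an adjusted p of at most 0.0786 in these cases.

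Tubulins and microtubule proteins showed 0 higher and 2 lower of 20 tested in P18 against NP15 (10.0%, median -0.08). TUBA1A, an alpha-tubulin, was at 0.73, 1.17, 1.41 and 0.98 in P18 and 2.10, 1.81, 1.84 and 2.46 in NP15, a fall by 0.98 (SE 0.19, limma adjusted p = 0.00312). TBCC, a tubulin folding cofactor, fell by 0.56 (adjusted p = 0.0128), a call that did not hold under any of the 5 other scalings and corrections. TUBB and MAP4, a beta-tubulin and a protein that stabilises microtubules, had differences of -0.70 and 1.71 in P18 against NP15. Neither passed there (limma adjusted p = 0.0538 and 0.09), while TUBB passed in P18 against P15, at -0.83 (adjusted p = 0.0264). In P18 against NP15, TUBB passed without NP15 replicate 3 (adjusted p = 0.012) or P18 replicate 4 (0.0367), with the adjustment for neighbouring spots (0.0423), with no filter on dim probes (0.0481) and with the replicate block (0.0134). MAP4 passed without P18 replicate 2 (0.0437) and with normexp (0.0114). Its signal was close to background, being well above it on 2 P18 and 3 NP15 arrays. Without NP15 replicate 4 its difference was 1.07 (limma adjusted p = 0.19). In P15 against NP15 limma called 0 members of the partner, dynein and tubulin lists, where 1.01% of all genes passed. An unadjusted limma p under 0.05 was reached by 0 members and by 8.75% of all genes.

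The tested spots around KLC3 on the array did not carry its rise. Within 2 rows and 2 columns lay 23 probes, of which 20 were tested. In P18 against NP15, 4 were higher and 5 lower (45.0%, beside 28.9% of all genes), with a median log2 change of -0.09 and a range of -1.74 to 1.28. The spots too dim to test in this area had differences of 0.80, 1.26 and 2.20. Within 5 rows and 5 columns, 27 of 95 tested passed (28.4%, close to the 28.9% of all genes), and the highest change among those tested was 1.51. Among the spots too dim to test there, the highest difference was 2.62. The 6 spots nearest to KLC3, at 72.4 to 74.2 micrometres, included 5 that were tested, with 2 lower, 0 higher and a highest change of 0.16.

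The local level moved slightly in the opposite direction. The median of the spots within 5 rows and 5 columns averaged -3.22 in P18, -2.93 in P15 and -2.90 in NP15, which is a difference of -0.32 for P18 against NP15. With each spot set against that local median, KLC3 was 3.78 higher in P18 than in NP15. The named neighbours that passed were SYT4, a synaptotagmin, at 0.85 (limma adjusted p = 0.0121), SNX2, a sorting nexin, at 0.36 (adjusted p = 0.0415), ANKRD54 at -0.57 (adjusted p = 0.0308) and HCLS1, a protein of blood cells. HCLS1 was lower in P18 (adjusted p = 0.0016), yet well above background on 0 of the P18 arrays.

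**Figure D3:**
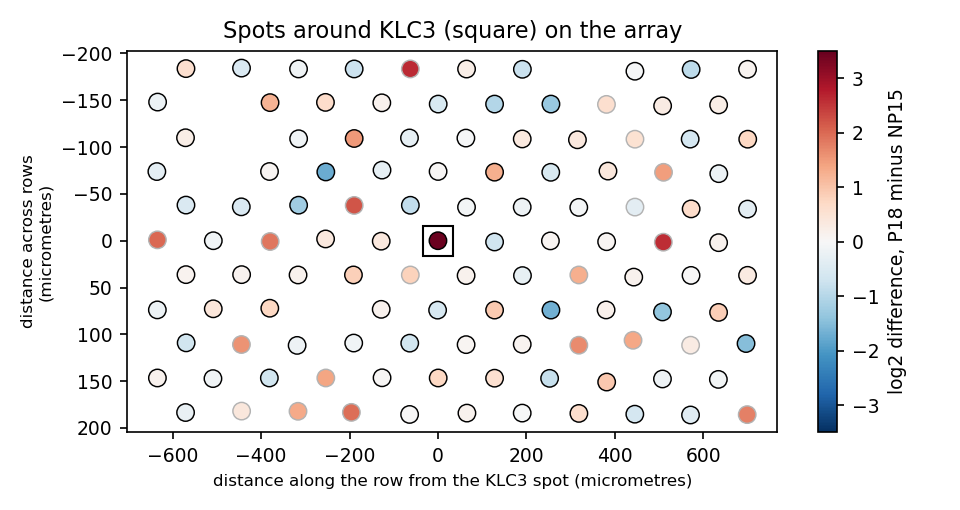
Map of the array within 5 rows and 5 columns of the KLC3 spot (in the square), with distances in micrometres and colour for the log2 difference of P18 minus NP15. Black rims are probes that were tested and grey rims are probes too dim to test. KLC3 is at 3.47, and the tested spots around it lie between -1.74 and 1.51.

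The genes next to KLC3 in the cattle gene order moved less and in both directions. Among the 10 genes on each side in the annotation of ARS-UCD2.0, 9 were on the array and 8 were tested. In P18 against NP15, 4 of the 8 passed, 1 higher and 3 lower, where 28.9% of all genes passed, 10.4% higher and 18.6% lower. In P18 against P15, 4 passed, where 28.3% of all genes passed. ERCC2, a helicase of DNA repair whose locus overlaps KLC3 in that annotation, was at -5.13, -5.30, -5.49 and -5.02 in P18, -5.85, -5.91, -6.36 and -6.23 in P15, and -5.86, -5.89, -6.15 and -5.94 in NP15. All its P18 arrays lay above the others, with a rise by 0.73 (SE 0.15, limma adjusted p = 0.00398) against NP15 and by 0.85 (adjusted p = 0.00171) against P15.

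On the other side of KLC3, MARK4, a kinase that acts on microtubule-associated proteins, was at least 1.01-fold lower in P18 than in NP15 (adjusted p = 6.92e-05 by limma) and well above background on 0 of the P18 arrays, and its call was lost with normexp (adjusted p = 0.471). PPP1R13L, an inhibitor of p53, and LOC508455 did not pass in P18 against NP15. ERCC1 and RTN2, named after their values were seen, fell by 0.52 (adjusted p = 0.00352) and by 0.67 (adjusted p = 0.0103). With median centring or the adjustment for neighbouring spots, 2 of the 8 passed. In P15 against NP15, limma called 0 of the 8, where 1.01% of all genes passed. An unadjusted limma p under 0.05 was reached by 0 of them and by 8.75% of all genes.

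A few named genes had a pattern close to that of KLC3 when each gene was set against its own mean over the 12 arrays. The root mean square difference from KLC3 was 0.43 log2 units for CLDN18, a tight junction claudin, 0.58 for ALX4, a homeobox factor, 0.61 for BPIFA2B, 0.62 for PROC, the anticoagulant protein C, and 0.70 for ARHGEF10L. CLDN18 was at -5.73, -5.67, -5.47 and -5.47 in P18, -8.63, -8.01, -8.76 and -9.36 in P15, and -7.98, -8.09, -8.74 and -8.62 in NP15. These genes were chosen for this likeness, so their own rise in P18 is a description.

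All 5 were dim where KLC3 was measured. They were well above background on 3 or 4 P18 arrays, on 0 P15 arrays and on 0 to 3 NP15 arrays. Their rises in P18 against P15 are therefore bounds, at least 2.96-fold for CLDN18, 3.03-fold for ALX4, 3.84-fold for BPIFA2B, 2.84-fold for PROC and 2.85-fold for ARHGEF10L. These bounds hold only for the scaling and background correction used here. In P18 against NP15 the 5 rises were 1.98 to 2.77 on the log2 scale as scaled here, and 0.94 to 1.18 with normexp. Of the 12 genes nearest to KLC3 by this measure, named or not, 1 was well above background on all 12 arrays, the unnamed transcript MGC139453, which ranked 5.

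**Figure D4:**
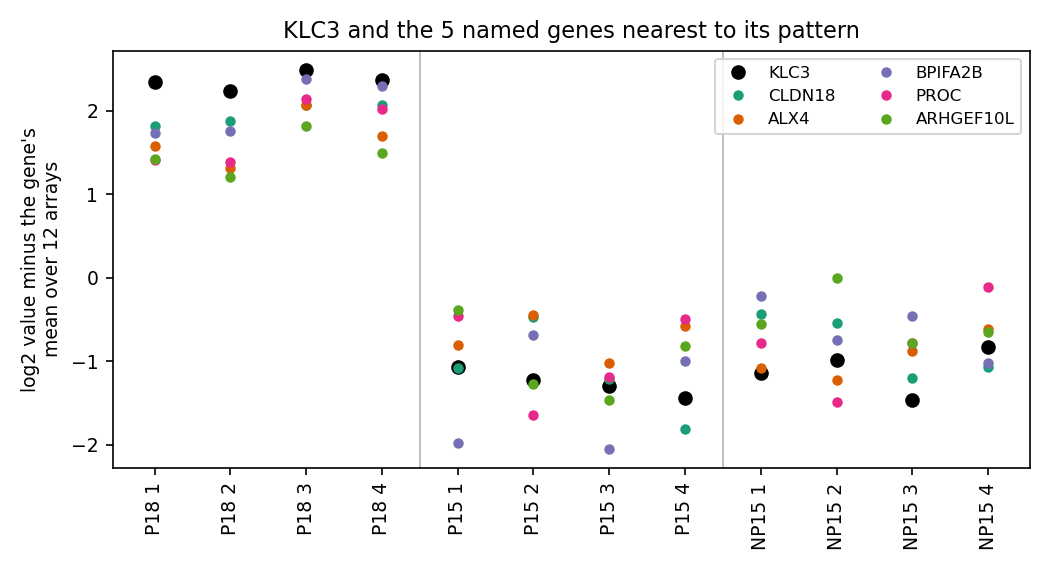
Log2 value minus the gene's own mean over the 12 arrays, for KLC3 (black) and the 5 named genes nearest to it in pattern, on each P18, P15 and NP15 array. All points of P18 lie above all points of P15 and NP15, and KLC3 is the highest of the 6 on each P18 array.

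The tissue was read as corpus luteum by its markers, and none of the marker genes tested changed by as much as KLC3. All 8 luteal genes, among them STAR, CYP11A1 and HSD3B1 of steroid synthesis, were well above background on all 12 arrays. In P18 against NP15, 3 of the 8 passed (37.5%, beside 28.9% of all genes), with PTGFR, the prostaglandin F receptor, higher, and HSD3B1 and SCARB1 lower. Endothelial markers were lower for 3 of 6, and fibroblast and smooth muscle markers for 4 of 6, where 18.6% of all genes were lower. Leukocyte markers had 1 higher and 1 lower of 7 (28.6%, beside 28.9% of all genes). The lower one, PTPRC, was well above background on 0 of the P18 arrays. Red blood cell markers had 1 higher of 3, where 10.4% of all genes were higher. None of the 4 trophoblast genes on the array was bright enough to test.

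Of the sperm and spermatid genes, 6 were tested, with 0 higher and 2 lower in P18 against NP15, where 10.4% of all genes were higher and 18.6% lower. In P18 against P15, 1 was higher and 0 lower, where 12.8% of all genes were higher and 15.5% lower. Of those tested, only ACR and PRM1 had a higher mean in P18 than in P15. Both were well above background on 0 P18 and 0 P15 arrays. The mean log2 value of the 6 genes lay between -4.48 and -4.31 on P18 arrays. It lay between -4.95 and -4.22 on P15 arrays and between -4.53 and -4.28 on NP15 arrays. ODF1, an outer dense fibre protein that binds KLC3 in rat, was well above background on all 12 arrays and had a difference of -0.02 (limma adjusted p = 0.927). TNP1, TEKT1 and SPACA1 were too dim to test. Of the epithelial genes, 8 were tested, with 1 higher in P18 against NP15, CLDN7 at 1.14 (adjusted p = 0.00332), and 2 lower, CDH1 and KRT8. In P18 against P15, 4 of these 8 were higher and 0 lower (median 0.58), where 12.8% of all genes were higher. Their mean was -2.83 to -2.31 on P18 arrays, -3.18 to -2.85 on P15 arrays and -2.89 to -2.59 on NP15 arrays, and the part of other cells in the KLC3 values was not tested.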

How the data were processed

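Per the file headers, Agilent Feature Extraction (9.5 per the submitters' processing notes, 9.5.1.1 per the headers) gave linear spot intensity, corrected for background and a spatial trend. The deposited table of log2 values (column medians -3.32 to -2.99) differs from these by 1 constant per array.

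Here each processed signal was put on the log2 scale and scaled to its array's 75th percentile. Control spots were dropped and marked spots, 0 to 9 per array, set to missing. Probes well above background on at least 3 of 4 arrays of a group were kept (12605), and the brightest stood for its gene. Where a group had 0 arrays above background, "at least" folds use, per dim array, the gene's signal or the array's lowest one above background, whichever is higher. Of 15208 probes, 7135 had a symbol, through a bovine gene table of ARS-UCD2.0 used for names and gene order.

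limma 3.58.1 in R 4.3.3 was fitted to all 12 arrays, with two-sided p-values adjusted by Benjamini-Hochberg over 12316 genes (threshold 0.05), and checked on simulated data. KLC3, the lists and the comparisons were chosen with earlier results of these data known. Named were all KLC and KIF5 genes, other kinesins called anywhere, 4 members per list with the smallest p, the 5 nearest in pattern, called neighbouring spots with a symbol, and 2 measured gene-order neighbours a side. Alternatives were other scalings, background correction (normexp, offset 50), filters, array weights, a replicate block, single arrays left out, and a local adjustment, which subtracts the median of spots within 5 rows and columns. Precision is limited by 4 arrays per group. Deviations of same-numbered arrays correlated at -0.0422 to 0.29, not all above 0.1, so the numbers were not taken as pairs. In P15 against NP15 these correlations were all positive, at 0.0973 to 0.29. The replicate number was also the column of the array on its slide, so number and column cannot be told apart.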

Additional observations from a re-analysis of the deposited data

Results flagged for a closer look

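Of 135 groups of 4 arrays, over 45 named or kinesin genes, 9 held an array whose gap to the nearest of the others exceeded Dixon's critical value as a share of the range, and chance alone gives about 1 in 20 such groups. KLC3 had none. Among the kinesins, the log2 value was -7.89 for KIF5A on NP15 replicate 4, 2.96 for KIF1C on P18 replicate 3, -3.61 for KIF20A on P18 replicate 4, -3.09 for KIF3C on NP15 replicate 4 and 1.06 for KIFAP3 on P18 replicate 3. Among the other genes it was -1.60 for VDAC2 on P18 replicate 1, 3.59 for VDAC2 on NP15 replicate 4, -9.37 for MAP4 on NP15 replicate 4 and -5.54 for MARK4 on NP15 replicate 4.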

How the results depend on the processing

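KLC3 kept its direction in P18 under every alternative. Against NP15 its log2 change was 3.71 with median centring, 3.76 with cyclic loess, 3.14 with normexp and 3.78 with the local adjustment, and 3.35 to 3.56 with single arrays left out. Against P15 it was 3.85, 3.86, 3.25 and 3.91 in the same settings, and 3.56 to 3.68 with single arrays left out. Set against the median of all genes it was 3.53 with median centring and in the main scaling. These settings differ only by a constant per array, so that value is the same in both by construction. KLC3 in P15 against NP15 stayed uncalled, between -0.27 and -0.05 (limma adjusted p 0.589 to 0.985), and was -0.15 with the replicate block. Other kinesins called in P18 against NP15 numbered 7, and 6 to 7 with single arrays left out. They numbered 5 with cyclic loess, 5 with normexp and 9 without a filter. All genes called in these 3 settings numbered 3783, 3319 and 5372. Neighbouring spots called numbered 9, and 3 within 1 row and column, 27 within 5, 2 among the 6 nearest (chosen after seeing the data), 4 with quantile scaling and cyclic loess, 5 with median centring, normexp and the local adjustment, and 4 to 9 with single arrays left out. The partner, dynein and tubulin lists, with 12, 13 and 20 genes tested, had 9 calls in P18 against NP15. They had 15 with median centring, 18 with the local adjustment and 6 to 11 with single arrays left out. Of all 12316 genes, 3564 were called as scaled here. That count also rose, to 4086 with median centring and 4227 with the local adjustment, and was 2830 to 3942 with single arrays left out. Gene-order neighbours called were 2 with median centring and 2 with the local adjustment. Without a filter, 5372 genes were called in P18 against NP15 and 5299 in P18 against P15. In P15 against NP15, 124 genes were called, 71 with normexp, 36 with the local adjustment, 207 with array weights, 71 with the replicate block, 61 with those groups alone, and 59 to 115 with single arrays left out. The block also ended the KIF3C call (adjusted p = 0.0689) and gave one for TUBB (adjusted p = 0.0134), and 8 of 12 arrays matched best an array of their own number in another group. Among uncalled differences that changed sign, PPP1R13L in P18 against NP15 was 0.11 with quantile scaling, 0.11 with median centring and 0.20 with cyclic loess. KLC2 in P15 against NP15 was 0.0594 with cyclic loess, 0.0678 with array weights, 0.0216 and 0.0503 without NP15 replicates 2 and 4, and -0.15 to 0.0503 over all single arrays left out. KLC4 was -0.0204 to 0.34 with single arrays left out, the lowest without P15 replicate 3. SPAG9, called as scaled here, was 0.15 with normexp. The causes were not tested.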
